A study of Mus musculus with 4 samples.

Results

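Cytosolic aminoacyl-tRNA synthetases and amino acid response genes were examined in follicular helper T (Tfh) cells, the latter being genes linked to the transcription factor ATF4. They were taken by symbol from the deposited table of 23997 genes. The 33 members comprise 20 synthetases, listed under their older symbols, and 13 response genes, and all 33 had a row. With a mean of 1 FPKM or more over the 4 libraries, 32 of them were tested, as were 11187 genes in all. FPKM counts fragments per kilobase of transcript, scaled to each library's mapped fragments, so levels may be compared between genes. Chac1 was below that minimum and is described without a test.

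Tfh cells provide help to B cells in lymphoid follicles. Libraries were made from Tfh cells of lymph nodes and spleens of 13-week-old C57BL/6 mice, 2 from wild-type (WT) animals and 2 from Apoe-/- animals, which lack apolipoprotein E and are prone to high plasma cholesterol and atherosclerosis. Strain, age and tissue were common to both groups. Nothing in the sources used here states the sort, the diet or any pooling of animals, or that replicates are separate mice. The p-values below therefore reflect library-to-library spread alone, and that spread may be technical.

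The FPKM totals were 522371 to 551289 per library, and read depth is unknown. Apoe itself was at 145 and 128 FPKM in the WT libraries and at 5.09 and 5.21 FPKM in those labelled Apoe-/-. The 9 markers of T and Tfh cells were all above 1 FPKM, with Cd4 at 365 to 408 FPKM and Cxcr5 at 162 to 223 FPKM. Markers of other cells were also present. Ms4a1, a B cell gene, was at 34 and 41.5 FPKM in WT and 14.7 and 20.8 FPKM in Apoe-/- libraries, and Lyz2, a gene of macrophages and neutrophils, was at 29.9 and 31.7 FPKM and at 43.2 and 48.4 FPKM.

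Aminoacyl-tRNA synthetases join each amino acid to its own tRNA and so set the supply of charged tRNA for translation. When an amino acid runs short, uncharged tRNA activates the kinase GCN2, which phosphorylates the initiation factor eIF2. General translation then slows while the mRNA of Atf4 is translated more, and ATF4 protein pairs with C/EBP family proteins to induce amino acid transporters, biosynthetic enzymes and many synthetase genes. Because ATF4 is controlled largely through translation, its mRNA level is no measure of its protein. Activated T cells are known to increase amino acid uptake, serine synthesis and one-carbon metabolism as they grow.

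The DNA element bound by ATF4 with C/EBP partners has the core TGATGNAA. Promoter windows of 300 bases, 250 before and 50 from the start site on, were searched for it on both strands in RefSeq's sequences (GRCm38.p6). Of the 33 members, 26 had a window, and 8 of these 26 (30.8%) held the core, against 1219 of 27025 genes (4.51%) in the whole table. The response genes were chosen for their link to ATF4, which also induces many synthetase genes. The higher share is therefore no independent result. The 8 were 5 of 13 synthetases and 3 of 13 response genes, and no window was found for Vars, Nars, Hars, Rars, Lars, Wars or Cars. 1 match in each of these 8 genes is shown, so that the bases around the core can be compared. Each line gives 30 bases, 5′ to 3′ on the strand that reads TGATGNAA, with the core in capitals.
Asns: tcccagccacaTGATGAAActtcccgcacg
Trib3: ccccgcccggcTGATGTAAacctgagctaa
Chac1: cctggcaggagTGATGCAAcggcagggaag
Aars: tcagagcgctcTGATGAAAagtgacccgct
Gars: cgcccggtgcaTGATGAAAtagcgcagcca
Iars: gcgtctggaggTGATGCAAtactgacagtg
Tars: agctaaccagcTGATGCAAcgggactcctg
Yars: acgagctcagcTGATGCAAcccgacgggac

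The 30 bases of Asns lie at chr6:7693214-7693243 on the minus strand and those of Trib3 at chr2:152344028-152344057 on the plus strand. Those of Chac1 lie at chr2:119351038-119351067, minus strand, and its core begins at position -193 from the start site. In Asns, Gars and Tars the core begins at -23, -30 and -15, counted along the gene's strand. Of the 10 members with a window that were lower in Apoe-/- libraries without overlap, 3 held the core. It occurred in 5 of the other 16 (31.2%). Those 10 include Chac1, which holds the core but was not tested, and the rest are among the tested members described next. A match is a description of these letters and shows no binding.

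In Apoe-/- Tfh cells neither group of genes passed the test. Of the 32 tested members, 0 were called higher and 0 lower by limma at an adjusted p under 0.05, whereas 1.83% of all tested genes were called, 0.948% higher and 0.885% lower. At an unadjusted p under 0.05, 1 member was higher (Vars) and 3 were lower (Rars, Sesn2 and Asns), or 12.5% against 19.9% of all tested genes. The median log2 difference, Apoe-/- minus WT on the log2(FPKM + 1) scale, was -0.07 for the synthetases and -0.09 for the response genes, beside 0.00 for all tested genes. Differences of at most 0.25 in size were found in 24 of 32 members (75%) and in 67.8% of tested genes. These values describe the members, and a p that misses the threshold does not show that the genotypes were equal.

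Both Apoe-/- libraries lay below both WT libraries for 12 of 32 members (37.5%), where 22.9% of all tested genes did. Both lay above for 4 members (12.5%), where 27.5% of tested genes did. The 12 were the synthetases Rars, Eprs, Farsb, Hars, Wars and Yars and the response genes Sesn2, Asns, Cebpg, Phgdh, Psat1 and Ddit3. The 4 were Vars, Sars, Qars and Atf4. In all, 16 of 32 members (50%) did not overlap between genotypes, against 50.4% of tested genes. With libraries rescaled to one median, 9 of 32 members lay below (23.2% of tested genes) and 5 above (27.6%). Quantile normalization also gave 9 below (24.9% of tested genes) and 5 above (25.6%). With libraries rescaled to one FPKM total, 12 lay below (29.1%) and 3 above (22.2%). Without Apoe-/- replicate 1, a single library against 2, the count below was 14 of 32 (43.8%), where 29.8% of all tested genes lay below. Without Apoe-/- replicate 2 it was 20 of 32 (62.5%), where 44% of all tested genes did.

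**Figure D1:**
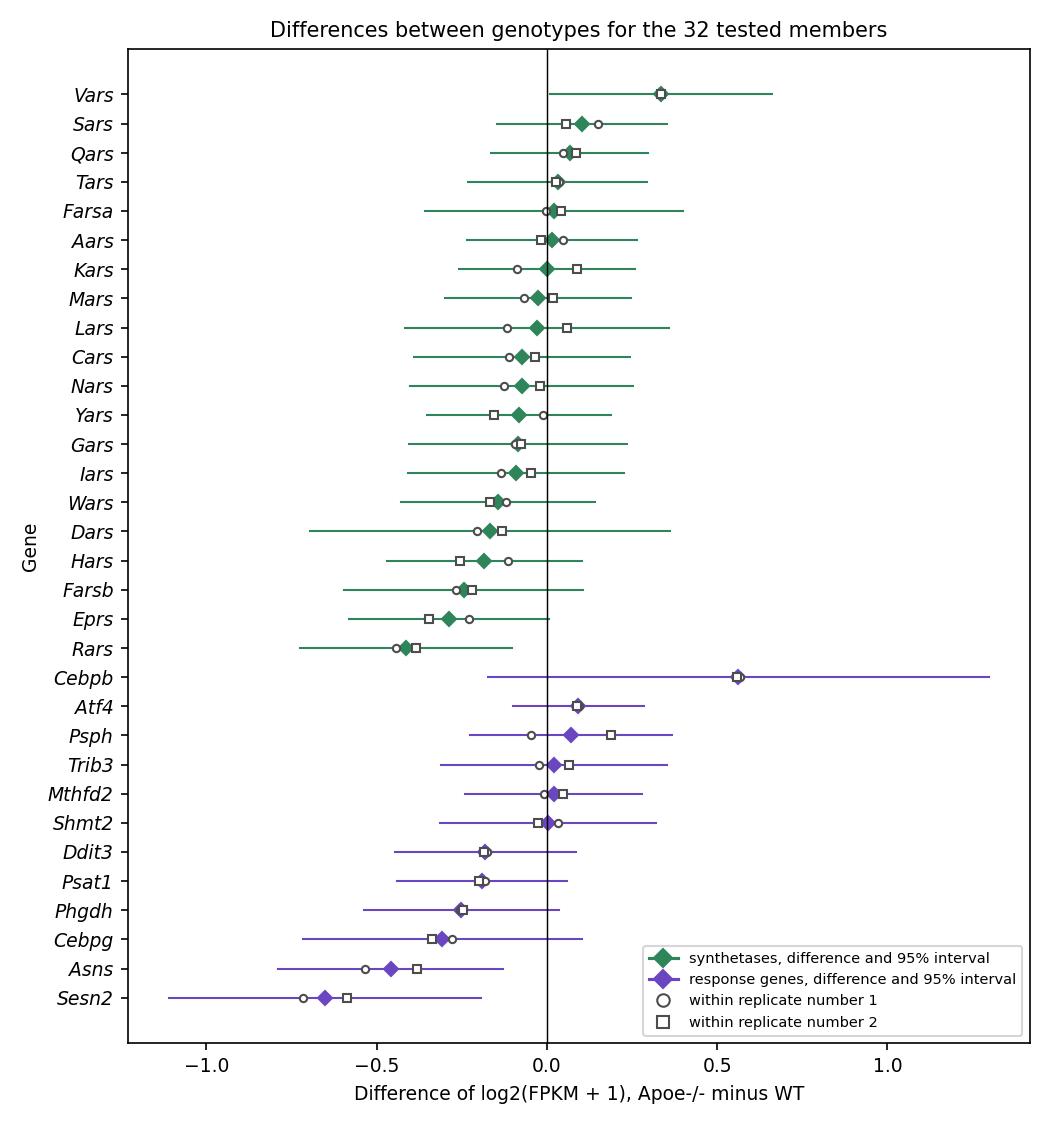
Difference of log2(FPKM + 1), Apoe-/- minus WT, for each of the 32 tested members (diamonds) with limma's 95% interval (bars), and the difference within replicate number 1 (open circles) and number 2 (open squares). The labels give no pairing of equal numbers. Most diamonds lie within 0.25 of 0; Rars (-0.41), Asns (-0.46) and Sesn2 (-0.65) lie farthest below and Vars (0.33) and Cebpb (0.56) farthest above.

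All 20 cytosolic synthetases were expressed, and none passed the test. Their means over the 4 libraries ran from 9.65 FPKM for Cars, which charges cysteine tRNA, to 66.3 FPKM for Dars, the aspartyl enzyme. Dars, Qars, Vars and Kars, for aspartate, glutamine, valine and lysine, were at the top of this order, and Mars, Iars, Yars and Cars, for methionine, isoleucine, tyrosine and cysteine, at its foot. Neighbours in the order mostly overlapped: Dars ranged from 52 to 80.1 FPKM and Qars from 60.8 to 65.6 FPKM. Summed over the 20 genes, the level was 660 and 699 FPKM in WT and 637 and 681 FPKM in Apoe-/- libraries, which overlapped. The median synthetase was at 30.5 and 31.4 FPKM in WT and at 26.9 and 28.2 FPKM in Apoe-/- libraries, which did not. That median can fall on different genes in different libraries. The median of the per-gene log2 differences was -0.07, and -0.125 to 0.0187 with 1 library left out.

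**Figure D2:**
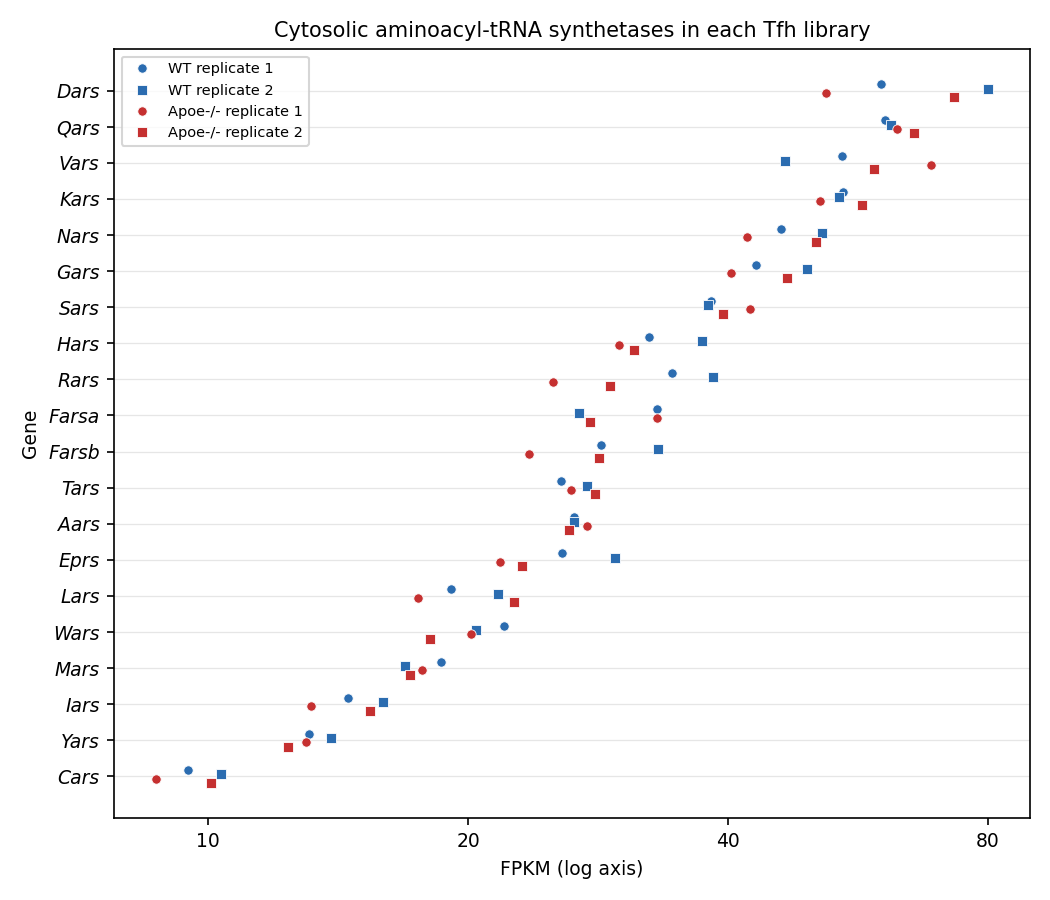
FPKM of the 20 cytosolic aminoacyl-tRNA synthetases in each library on a log axis, WT in blue and Apoe-/- in red, replicate 1 as circles and replicate 2 as squares, ordered by mean level. Red and blue points overlap for 11 of the 20 genes. Both red points lie left of both blue points for 6 (30%), Rars among them, and right for 3 (15%), Vars among them. Over all tested genes these shares were 22.9% and 27.5%.

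Rars encodes arginyl-tRNA synthetase (chromosome 11, 35808381 to 35834528, GRCm38). It was at 34.5 and 38.4 FPKM in WT and at 25.1 and 29.2 FPKM in Apoe-/- cells. The Apoe-/- libraries were both lower, and the WT mean was 1.34-fold that of Apoe-/- (log2 difference -0.41 ± 0.12 SE, 95% interval -0.73 to -0.10, limma adjusted p = 0.159). Within replicate numbers 1 and 2 the difference was -0.44 and -0.39. The labels give no pairing of equal numbers, so such values, here and below, are not matched comparisons.

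Vars, the valyl enzyme, stood on the other side (chromosome 17, 35000907 to 35016329). It was at 54.3 and 46.6 FPKM in WT and at 68.7 and 59 FPKM in Apoe-/- cells, without overlap. The log2 difference was 0.33 ± 0.13 SE (95% interval 0.01 to 0.66, limma adjusted p = 0.243), with 0.33 and 0.34 within the numbers.

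Eprs, a single protein that charges both glutamate and proline tRNA, was at 25.7 and 29.6 FPKM in WT and 21.8 and 23.1 FPKM in Apoe-/- cells. Its log2 difference was -0.29 (95% interval -0.58 to 0.01, limma adjusted p = 0.261). Farsa and Farsb encode the 2 subunits of phenylalanyl-tRNA synthetase. Farsa, which overlapped between genotypes, was at 33.1 and 26.9 FPKM in WT and 33.1 and 27.7 FPKM in Apoe-/- cells. Farsb was at 28.5 and 33.2 FPKM and at 23.5 and 28.3 FPKM, with log2 difference -0.24 and limma adjusted p = 0.400. Between replicate numbers the subunits moved oppositely in both genotypes, since Farsa was lower and Farsb higher in each library numbered 2.

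The closest match between genotypes was in Kars, Aars, Farsa and Mars, the lysyl, alanyl, phenylalanyl alpha and methionyl genes. Their log2 differences were 0.00, 0.02, 0.02 and -0.03. The 95% interval was -0.26 to 0.26 for Kars and -0.23 to 0.26 for Aars, and with libraries rescaled to one FPKM total the values of Kars, Aars and Farsa were below 0. Dars had the widest interval of the synthetases, from -0.70 to 0.36, around a difference of -0.17. It was at 60.1 and 80.1 FPKM in WT and 52 and 73 FPKM in Apoe-/- cells, so the libraries numbered 2 were above those numbered 1 in either genotype.

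Synthetases fall into 2 structural classes, built on unrelated catalytic folds. The median log2 difference was -0.07 over 9 class I and -0.04 over 10 class II genes, leaving out Eprs, which holds a domain of each. Of the 20, 8 are known to sit in the multisynthetase complex (Eprs, Iars, Lars, Mars, Qars, Rars, Kars and Dars). Those 8 had a median of -0.06 and the other 12 a median of -0.07. This split by textbook membership was made after the values were seen. The complex's scaffold genes Aimp2 and Eef1e1 had mean levels of 15.3 and 18.4 FPKM in WT and 13.4 and 16.3 FPKM in Apoe-/- cells (limma adjusted p = 0.468 and 0.593). Of the 3 tested scaffold genes, 0 passed.

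Some of these genes overlap a neighbour, and no source used here states whether counting used strand. By RefSeq's spans, Mars and Ddit3 share 71 bases and Aars and Ddx19b 3974 bases, each on opposite strands. Farsb shares 2332 bases with Sgpp2, and Cebpg 1084 bases with Gm45095. Reads from such stretches cannot be told apart without strand, and how much they add was not tested.

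The response genes spanned a far wider range of levels, from 0.0875 FPKM for Chac1 to 366 FPKM for Atf4. Of the 12 tested, 0 passed in either direction. Atf4 and Cebpb had the highest means of the response genes, while Ddit3 and Cebpg ranked below the enzymes Psat1, Phgdh and Mthfd2. Atf4 (chromosome 15, 80255184 to 80257545) was at 353 and 356 FPKM in WT and at 377 and 378 FPKM in Apoe-/- cells. Its libraries did not overlap, yet the difference was small: 0.09 ± 0.08 SE on the log2 scale (95% interval -0.10 to 0.28, limma adjusted p = 0.555).

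Cebpb, a C/EBP factor of acute and inflammatory responses that is also abundant in myeloid cells, had the largest difference above 0 among the members (chromosome 2, 167688915 to 167690432). It was at 51.1 and 32.3 FPKM in WT and at 76.1 and 48 FPKM in Apoe-/- cells. The groups overlapped, because WT replicate 1 was above Apoe-/- replicate 2. The log2 difference was 0.56 ± 0.29 SE (95% interval -0.17 to 1.30, limma adjusted p = 0.358), and it was 0.57 and 0.56 within numbers 1 and 2. Without Apoe-/- replicate 2, which leaves a single Apoe-/- library, it was 0.89. Over the settings that kept all libraries and ignored replicate number, limma adjusted p was 0.351 to 0.448.

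Myeloid marker sums were higher in the Apoe-/- libraries. Cebpb was higher in replicate 1 than in replicate 2 of each genotype. Both sums were higher in replicate 1 in WT and in replicate 2 in Apoe-/- cells. The 8 neutrophil markers summed to 8.85 and 6.95 FPKM in WT and 49.4 and 65.9 FPKM in Apoe-/- cells. Of these, 4 of the 4 tested passed as higher, where 0.948% of all tested genes did. Elane and Camp, genes of immature neutrophils, were listed at 0 in every library. The 8 macrophage and monocyte markers summed to 103 and 97.3 FPKM and to 120 and 129 FPKM. Of these 8, 1 passed as higher, beside the same 0.948%. Without overlap, 4 of the 8 were higher and 1 lower, beside 27.5% and 22.9% of all tested genes. The part of these cells in the Cebpb values was not tested, and in bulk libraries fewer cells of a type and less RNA per cell cannot be told apart.

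Cebpg, whose product forms heterodimers with ATF4, lies on chromosome 7 at 35046422 to 35056566, 15.3 Mb from Apoe. It was at 12.5 and 15.8 FPKM in WT and 10.1 and 12.3 FPKM in Apoe-/- cells, lower in both Apoe-/- libraries (log2 difference -0.31 ± 0.16 SE, 95% interval -0.72 to 0.10, limma adjusted p = 0.367). Ddit3, which encodes the stress-induced factor CHOP, was at 34.8 and 32.4 FPKM and at 30.7 and 28.3 FPKM. Its log2 difference was -0.18 (95% interval -0.45 to 0.09, limma adjusted p = 0.409). Thus Cebpb and Atf4 had differences above 0 and Cebpg and Ddit3 below 0, and none of the 4 passed.

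**Figure D3:**
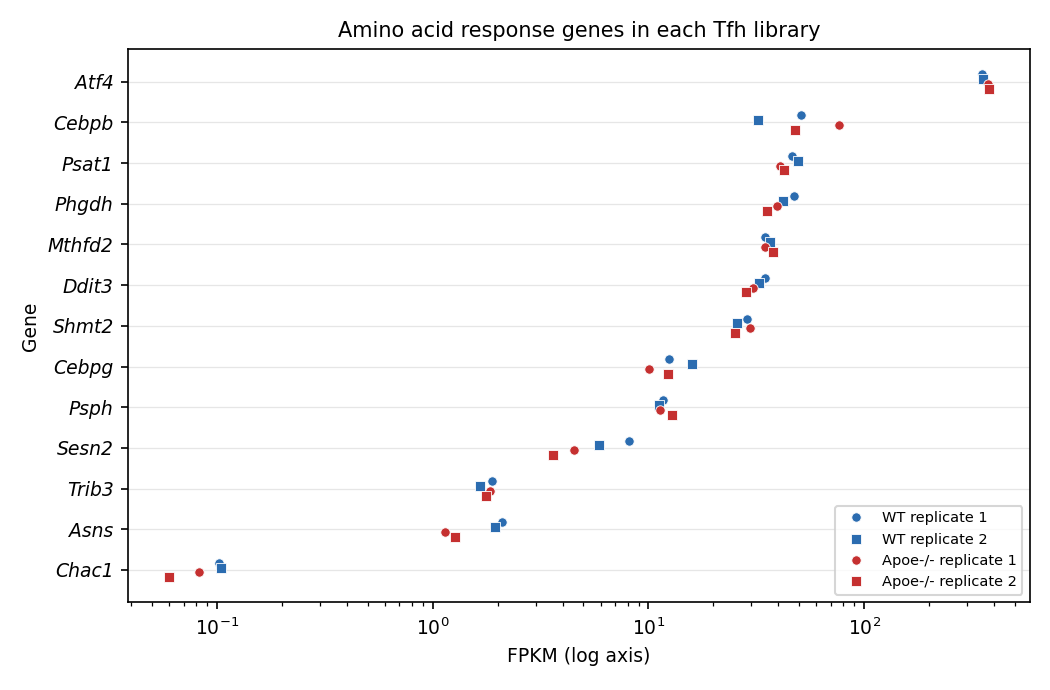
FPKM of the 13 amino acid response genes in each library on a log axis, WT in blue and Apoe-/- in red, replicate 1 as circles and replicate 2 as squares, ordered by mean level. Atf4 lies near 366 FPKM in every library, whereas Asns (means of 2.02 and 1.2 FPKM) and Sesn2 (7.02 and 4.08 FPKM) have both red points to the left of both blue points.

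Among the biosynthetic enzymes, Asns makes asparagine and is a classic ATF4 target (chromosome 6, 7675165 to 7693209). Its level was low, at 2.1 and 1.95 FPKM in WT and 1.14 and 1.26 FPKM in Apoe-/- cells. Both Apoe-/- libraries were lower, and the WT mean was 1.68-fold that of Apoe-/-. On the log2(FPKM + 1) scale, which understates differences at such levels, this was -0.46 ± 0.13 SE (95% interval -0.79 to -0.13, limma adjusted p = 0.151).

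Serine is made from a glycolytic intermediate by Phgdh, Psat1 and Psph in turn. Phgdh was at 47.1 and 42.1 FPKM in WT and 39.3 and 35.4 FPKM in Apoe-/- cells (log2 difference -0.25, 95% interval -0.54 to 0.03, limma adjusted p = 0.301). Psat1 was at 46.1 and 49.1 FPKM and at 40.5 and 42.6 FPKM (-0.19, -0.44 to 0.06, limma adjusted p = 0.356). Both were lower in each Apoe-/- library, while the last enzyme was not. Psph was at 11.7 and 11.2 FPKM and at 11.3 and 12.9 FPKM, which overlapped.

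Shmt2 and Mthfd2 pass the carbon of serine into mitochondrial folate. Shmt2 averaged 27.2 ± 2.19 FPKM in WT cells and 27.3 ± 3.01 FPKM in Apoe-/- cells (SD, n = 2). For Mthfd2 the means were 35.6 ± 1.17 and 36.1 ± 2.23 FPKM (SD, n = 2). The log2 differences were 0.00 and 0.02, with 95% intervals of -0.31 to 0.32 and -0.24 to 0.28, and both were below 0 with libraries rescaled to one FPKM total. Of 8 other tested folate enzymes 0 passed. Mthfd1, the cytosolic counterpart, was at 14.9 and 15.2 FPKM in WT and 13.4 and 12.8 FPKM in Apoe-/- cells (limma adjusted p = 0.385).

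Sesn2, a leucine sensor that restrains the growth kinase complex mTORC1, had the largest difference of the members (chromosome 4, 132492804 to 132510456). It was at 8.11 and 5.93 FPKM in WT and at 4.54 and 3.61 FPKM in Apoe-/- cells. The WT mean was 1.72-fold that of Apoe-/-, without overlap (log2 difference -0.65 ± 0.18 SE, 95% interval -1.11 to -0.19, limma adjusted p = 0.145), and the difference was -0.72 and -0.59 within the numbers. Without Apoe-/- replicate 1, which leaves a single Apoe-/- library, it was -0.78. Over the settings that kept all libraries and ignored replicate number, limma adjusted p was 0.135 to 0.223 for Sesn2. Its paralogue Sesn3 was at 53.7 and 56.9 FPKM in WT and 39.2 and 44.8 FPKM in Apoe-/- cells (limma adjusted p = 0.148).

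Trib3 encodes a pseudokinase that is induced by ATF4 and CHOP and inhibits them. It was at 1.89 and 1.65 FPKM in WT and 1.84 and 1.77 FPKM in Apoe-/- cells, a log2 difference of 0.02 (95% interval -0.31 to 0.35) that was below 0 with libraries rescaled to one FPKM total or quantile normalized. Chac1, which degrades glutathione and is strongly induced by ATF4, was at 0.103 and 0.104 FPKM and at 0.0829 and 0.0601 FPKM, too low to test. Of the 3 response genes with the core element in the window, Asns, Trib3 and Chac1, all were thus at or below 2.1 FPKM in every library. Among the paralogues of the response genes 0 of 7 tested passed. Cebpa was at 77 and 66.8 FPKM in WT and 100 and 79.5 FPKM in Apoe-/- cells, without overlap (limma adjusted p = 0.314).

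Upstream of ATF4, 0 of 9 tested genes of the eIF2 kinases, phosphatase and GCN2 regulators passed, with a median log2 difference of -0.15. Eif2ak3 encodes PERK, the eIF2 kinase of the endoplasmic reticulum. It was at 15.8 and 16.7 FPKM in WT and 11.2 and 12.4 FPKM in Apoe-/- cells (limma adjusted p = 0.129). Impact, an inhibitor of GCN2 activation, was at 27.4 and 34.4 FPKM and at 19.3 and 21.4 FPKM (limma adjusted p = 0.123). Eif2ak4, the gene of GCN2 and named after its values were seen, was at 8.14 and 9.05 FPKM and at 10.1 and 10.9 FPKM (limma adjusted p = 0.296). PERK and Impact mRNA were thus lower and GCN2 mRNA higher in both Apoe-/- libraries, and none of these differences passed.

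The amino acid transporters linked to ATF4 were the 1 list of the pathway with genes past the test. Of 6 tested, 3 fell and 0 rose, where 0.885% of all tested genes were called lower and 0.948% higher. The median log2 difference of the 6 was -0.60. This list was written with earlier results on Slc1a5 known and is no independent evidence of its direction. Slc1a5, a glutamine transporter gene 2.9 Mb from Apoe, was at 152 and 130 FPKM in WT and at 39.5 and 35.1 FPKM in Apoe-/- cells. It fell by 1.89 ± 0.12 SE on the log2 scale (limma adjusted p = 0.00802). Slc38a2, which carries small neutral amino acids and is induced when they are scarce, fell from 179 and 194 FPKM to 85.6 and 95.4 FPKM (log2 difference -1.04 ± 0.10 SE, limma adjusted p = 0.0187, -1.06 and -1.02 within the numbers). It passed in all 13 alternative settings.

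Slc7a5, the light chain of the large neutral amino acid transporter, fell from 17.3 and 16.2 FPKM to 10.1 and 9.64 FPKM (log2 difference -0.71 ± 0.11 SE, limma adjusted p = 0.0494). That call ended without WT replicate 1 (0.191) or 2 (0.173) and in 4 settings that kept all libraries (range of adjusted p over all settings 0.00319 to 0.191). Its partner Slc3a2, named after its values were seen, was at 170 and 162 FPKM in WT and 125 and 112 FPKM in Apoe-/- cells (limma adjusted p = 0.0872). Whether the transporters differed from the synthetases was not tested. The 8 B cell markers summed to 321 and 313 FPKM in WT and 199 and 188 FPKM in Apoe-/- cells. All 8 were lower without overlap, where 22.9% of all tested genes were. Of the 8, 3 passed the adjusted threshold, beside 0.885% of all tested genes called lower. The part of B cells in these values was not tested.

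**Figure D4:**
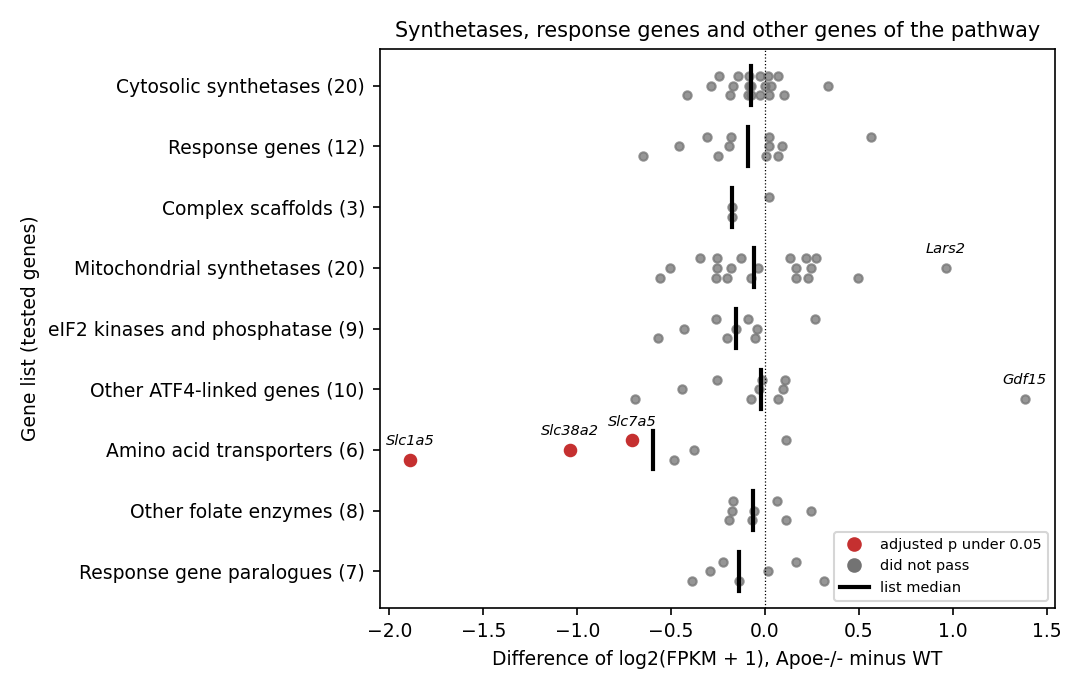
Difference of log2(FPKM + 1), Apoe-/- minus WT, for each tested gene of 9 lists (points), with the list median (black bars); red points passed at an adjusted p under 0.05. The 20 cytosolic synthetases lie between -0.41 and 0.33, whereas Slc1a5, Slc38a2 and Slc7a5, the 3 genes that passed, lie from -1.89 to -0.71. The mitochondrial list includes the amidotransferase genes Pet112, Gatc and Qrsl1.

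Of 10 other tested genes linked to ATF4, 0 passed. Gdf15, a stress-induced cytokine, was at 1.67 and 1.22 FPKM in WT and 6.83 and 4.13 FPKM in Apoe-/- cells, a mean 3.8-fold higher (log2 difference 1.38 ± 0.23 SE, limma adjusted p = 0.0642). With 1 library left out, its log2 difference was 1.08 to 1.69. Over the settings that kept all libraries and ignored replicate number, limma adjusted p was 0.0554 to 0.122. Macrophages also make Gdf15, and their markers are given beside Cebpb. Stc2, a secreted glycoprotein, was at 6.17 and 5.74 FPKM and at 3.28 and 3.31 FPKM (limma adjusted p = 0.0643). It passed with no mean-variance trend (limma adjusted p = 0.0492). Over the settings that kept all libraries and ignored replicate number, limma adjusted p was 0.0492 to 0.122.

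The next list held mitochondrial synthetases, encoded by nuclear genes outside the members, and the amidotransferase genes Pet112, Gatc and Qrsl1. Its median log2 difference was -0.06, and 0 of 20 tested passed. Lars2, the leucyl gene, had the largest difference of this list and the widest spread. It was at 187 and 94.7 FPKM in WT and at 144 and 469 FPKM in Apoe-/- cells, so Apoe-/- replicate 2 stood above the other 3 libraries. The log2 difference was 0.96 ± 0.60 SE (limma adjusted p = 0.431), and it was -0.37 within number 1 and 2.30 within number 2. Without Apoe-/- replicate 1, which sets that single library against WT, it was 1.81. Over the settings that kept all libraries and ignored replicate number, limma adjusted p was 0.385 to 0.531.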

How the data were processed

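RNA-seq libraries of Tfh cells from 2 WT and 2 Apoe-/- samples were compared. The authors deposited FPKM per gene symbol and library. Genome build mm10 and the tools TopHat2 2.0.13, Cuffdiff 2.2.0 and CASAVA 1.8.2 are named, without settings, in the submitters' processing notes. Their annotation and filters are not stated there. In 2 rows a space stood for a tab, and these were split on white space. Genes averaging at least 1 FPKM were analysed as log2(FPKM + 1) with limma 3.58.1 in R 4.3.3 (mean-variance trend, two-sided, Benjamini-Hochberg adjustment over 11187 genes, threshold 0.05). The fit was tried on simulated data with independent noise in each library, so shifts shared by libraries of equal number were not covered. No permutation test was run, since 2 libraries against 2 allow no p below 0.333. The members and gene lists were chosen with earlier results of these data known. All members were named, and from each other list the genes that passed and the 2 with the largest difference, except items that are not reported here. Positions are RefSeq's on GRCm38, the assembly called mm10. Promoters were searched in Python 3.11.15. Alternatives were another pseudocount (0.1, 0.5), filter (none, 5 FPKM), 3 scalings, no trend, the replicate number as a block, and each library left out.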

Additional observations from a re-analysis of the deposited data

How the results depend on the processing

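Members called were 0 higher and 0 lower in all 8 alternatives that kept every library without the block. With 1 library left out they were 0 to 1 higher and 0 to 1 lower. The labels give no pairing. In a fit with a replicate block, 2 members were higher and 10 lower, or 37.5% of members beside 32.9% of all tested genes. With the block 5 genes of the other lists were higher and 20 lower, against 0 and 3, and with 1 library left out 0 to 2 and 2 to 5. Shifts from replicate 1 to 2 in WT and in Apoe-/- had a Pearson r of 0.21 across all tested genes, which are not independent. Over all tested genes 106 were higher and 99 lower. The counts were 1908 and 1776 with the block, 35 and 41 with no filter, 51 and 71 with 5 FPKM, and 54 to 317 and 61 to 301 with 1 library left out. The synthetase median was -0.119 with libraries rescaled to one FPKM total, where the median of all tested genes was -0.0432, and -0.125 to 0.0187 with 1 library left out. Members with every remaining Apoe-/- library below every remaining WT library then numbered 14 to 20 of 32, or 43.8% to 62.5%, beside 29.8% to 44% of all tested genes. Differences turned sign when rescaled to one total for Kars (-0.0472), Farsa (-0.0267), Tars (-0.0149), Aars (-0.0310), Mthfd2 (-0.0274), Shmt2 (-0.0426) and Trib3 (-0.0103), and when quantile normalized for Trib3 (-0.0593). With 1 library left out they spanned 0 for Dars (-0.409 to 0.0732), Kars (-0.0800 to 0.0801), Nars (-0.205 to 0.0562), Gars (-0.192 to 0.0219), Farsa (-0.127 to 0.166), Tars (-0.0169 to 0.0800), Aars (-0.0176 to 0.0483), Lars (-0.205 to 0.146), Mars (-0.0915 to 0.0401), Iars (-0.197 to 0.0154), Cars (-0.169 to 0.0223), Mthfd2 (-0.0417 to 0.0806), Shmt2 (-0.105 to 0.113), Psph (-0.0169 to 0.158), Trib3 (-0.0419 to 0.0830) and Eef1e1 (-0.362 to 0.00552). The other 17 tested members kept their sign in every setting. The cause of these changes was not tested.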

Other observations

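Within each genotype the library numbered 2 differed from that numbered 1. This shift had one sign in WT and Apoe-/- cells for 28 of 32 tested members (87.5%), beside 77.5% of all tested genes. It was larger than the difference between genotypes for 15 of the 32 (46.9%), beside 45.5% of all tested genes. Cebpb was lower in number 2 by -0.65 and -0.66 on the log2 scale in WT and Apoe-/- cells, and Dars was higher by 0.41 and 0.48. Across the 32 members the shifts in WT and Apoe-/- cells had a Pearson r of 0.91, a description over genes of the same 4 libraries. The labels do not say what a number marks, and the cause of these shifts was not tested.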
